A study of Mus musculus with 6 samples.

Results

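Amino acid transporter genes were described in whole mouse ovaries at postnatal day 14, across 7 solute carrier families (Slc1a, Slc3a, Slc6a, Slc7a, Slc36a, Slc38a and Slc43a). A gene belonged to the set when its symbol matched one of these family names followed by a number, and 58 of the 37924 genes in the deposited table did so. Of these 58, 38 had a mean of at least 0.5 FPKM (fragments scaled by transcript length and by library depth) over all 6 libraries and entered the comparison, among 14934 genes tested. The 3 cKO (conditional knockout) libraries are from flox/flox mice that also carried Gdf9iCre+, a transgene that expresses Cre recombinase under the Gdf9 promoter. The 3 control libraries are from flox/flox mice with no Cre in their genotype label, so both groups carry the same floxed allele. The strain of all mice was C57BL/6J/129S7/SvEvBrd. Each library is a pool of 3 mice that gave 1 ovary each, and the spread within a group is therefore a spread between pools. The Gdf9 promoter is active in oocytes, whereas the libraries hold RNA of every cell type of the ovary, and a bulk value cannot tell fewer cells of a type from less RNA per cell.

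A growing mouse oocyte takes up some amino acids poorly and receives them from the granulosa cells around it, through gap junctions on fine granulosa cell processes that cross the egg coat. Slc38a3 is known from mouse cumulus cells, the granulosa cells next to the oocyte, as a carrier whose transcript the oocyte promotes. System N carriers exchange glutamine, histidine and asparagine with sodium and protons, and system A carriers take up small neutral amino acids with sodium. Light chains of the Slc7a family reach the cell surface bound to a heavy chain of the Slc3a family. The family names are broader than amino acid transport. Slc6a8 carries creatine, Slc6a6 taurine, Slc6a4 serotonin and Slc6a11 the transmitter GABA, and Slc43a3 is known as a carrier of purine bases.

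The libraries held an estimated 22500000 to 24900000 fragments in cKO and 19600000 to 22700000 fragments in control, read from the lowest FPKM values. Mitochondrial transcripts made up 7.31% to 13.9% of summed FPKM in cKO and 11.9% to 14.2% in control. The granulosa markers summed to 1750 to 3354 FPKM per pool and the oocyte markers to 950 to 1938 FPKM. Single markers were far lower, down to 6.51 FPKM for the granulosa marker Fshr in cKO 3. No marker of any listed cell type was at 0 in all pools. Control 3 stood apart from the other controls by its fat cell markers (Adipoq, Cfd, Fabp4 and Lep), which summed to 3.1 to 5.34 FPKM in cKO, 8 and 8.2 FPKM in control 1 and control 2, and 32.1 FPKM in control 3. Over all genes tested, 334 (2.24%) rose and 312 (2.09%) fell in cKO at an adjusted p below 0.05 by limma, 646 (4.33%) in either direction. With quantile normalisation 270 rose and 421 fell, and with median centring 254 rose and 577 fell. The counts also changed when a single pool was left out. Without cKO 1, 6 rose and 9 fell, and without cKO 2, 108 rose and 84 fell. Without control 1, 5 rose and 15 fell, and without control 2, 2 rose and 16 fell. Without cKO 3, 266 rose and 216 fell, and without control 3, 352 rose and 388 fell.

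In cKO ovaries 3 of the 38 transporter genes fell and none rose by limma, and 35 did not pass. This is 7.89% of the transporter genes tested, against the 2.09% of all genes tested that fell, and it rests on 3 genes. The genes that fell were the system N carriers Slc38a5 and Slc38a3, and Slc6a15, a carrier of branched-chain amino acids and proline. None passed without cKO 1 or without control 1, and 1 passed without control 2. At an unadjusted p below 0.05, 7 members were higher and 6 lower in cKO, against 14.5% and 9.8% of all genes tested. Where the groups also did not overlap, 5 members were higher and 5 lower, against 12.9% and 8.84% of all genes. The median log2 change was 0.11 over the 38 members and 0.05 over all genes tested, and 27 members (71.1%) lay above 0, as did 58.5% of all genes.

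**Figure D1:**
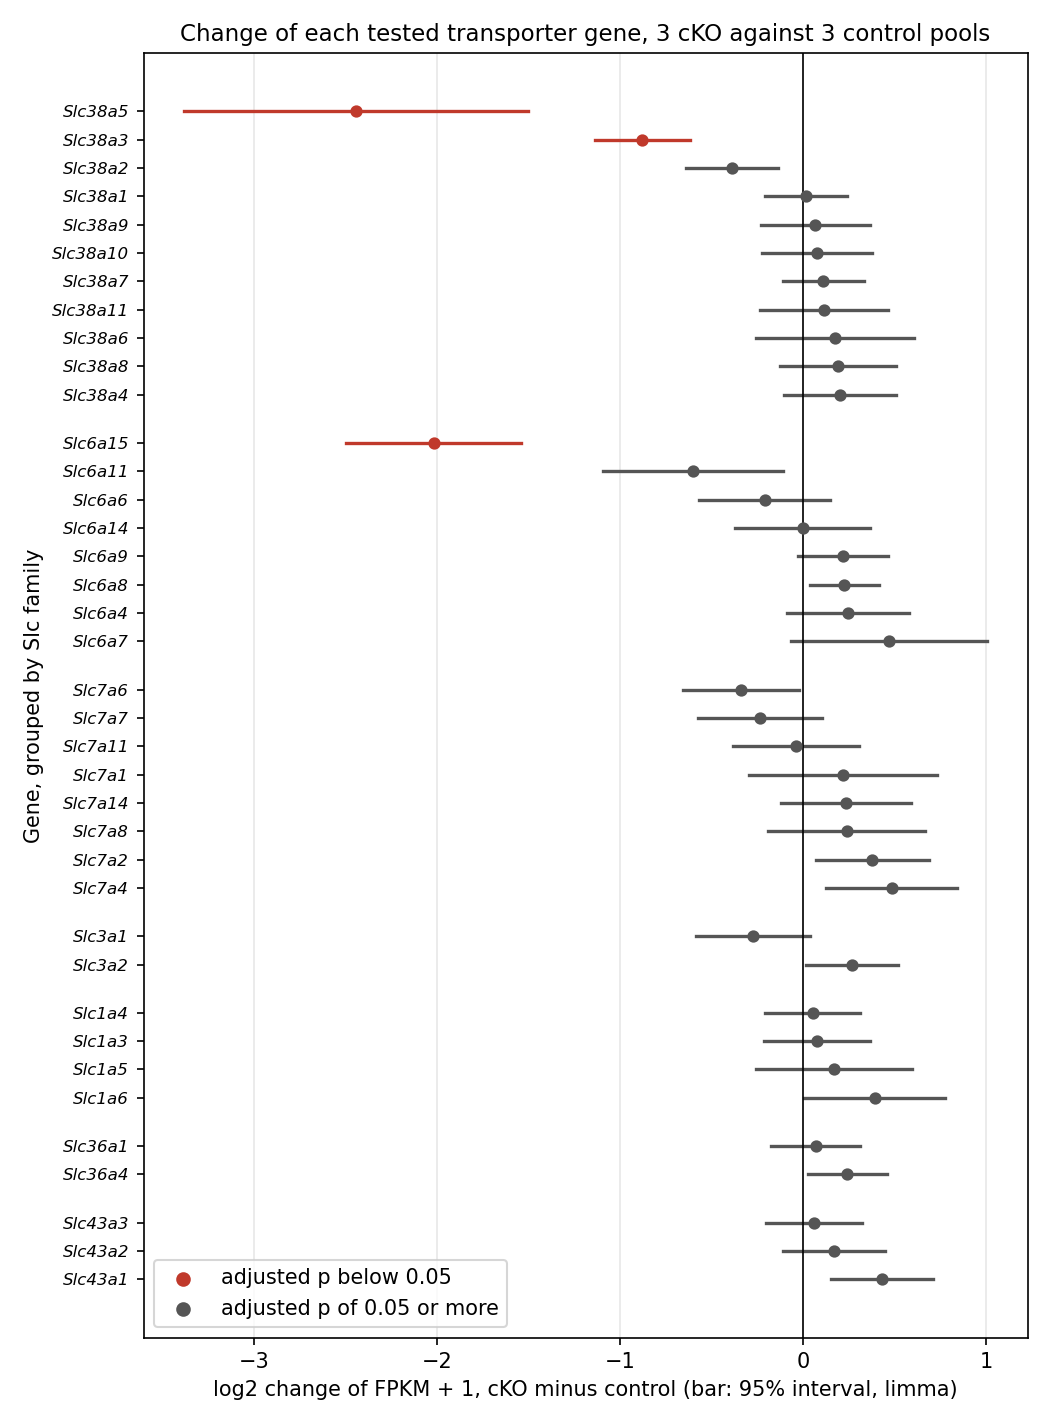
Log2 change of FPKM + 1 (cKO minus control, x axis) for each of the 38 transporter genes tested, grouped by family, with 95% intervals from limma over 3 pools per group. Slc38a5 at -2.44, Slc6a15 at -2.02 and Slc38a3 at -0.88 lie left of all others and are the only members drawn in red, below an adjusted p of 0.05.

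Slc38a5 showed the largest difference of the set. It encodes a system N carrier and lies on chromosome X (mm10, 8271133 to 8280179, plus strand). It read 9.11, 10.1 and 5.96 FPKM in cKO 1 to 3, against 67.4, 73 and 23.9 FPKM in control 1 to 3. The groups did not overlap, but control 3 lay far below the other 2 controls and closest to the cKO pools. The mean was 8.41 ± 2.18 FPKM in cKO and 54.8 ± 26.8 FPKM in control (SD, n = 3 each), and the log2 change was -2.44 (SE 0.40, 95% interval -3.38 to -1.50, adjusted p = 0.028 by limma). By mean FPKM it ranked number 14 among the transporter genes in cKO and number 3 in control. Its estimated fragment number was 310 in the lowest pool and 3290 in the highest. The call was lost in 5 of the 6 fits that left out 1 pool, at adjusted p-values from 0.0545 (without cKO 3) to 0.119 (without control 2), with log2 changes from -2.58 to -2.16. Without control 3 the log2 change was -2.95 at an adjusted p of 0.00203.

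Just before its RefSeq start the Slc38a5 gene has a stretch of 120 bases that lies in no GENCODE exon of the gene, at chrX:8271261-8271380 (GRCm38.p6, plus strand). The GENCODE gene begins farther upstream, at 8271133, so the stretch lies inside the annotated gene, between exons. The stretch is shown because Slc38a5 is the member with the largest change. The capitals mark its match to CACGTG, the E-box bound by several basic helix-loop-helix factors. This motif was picked after the sequence had been read. Its first base lies 30 bases before the RefSeq start.
Slc38a5: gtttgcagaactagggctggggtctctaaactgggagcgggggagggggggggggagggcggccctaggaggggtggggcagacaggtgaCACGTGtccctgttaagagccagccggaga
The motif, which reads the same on both strands, was found in a RefSeq promoter window of 8.09% of 27025 genes, and 6 of the 28 tested members with such a window held it (Slc1a6, Slc36a1, Slc38a5, Slc38a7, Slc43a1 and Slc7a14). Of these 6 members Slc38a5 fell. Slc38a3 and Slc6a15 had no window, so Slc38a5 was the only gene that fell that could be read. The motif can therefore not be compared between genes that fell and the others.

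Slc38a3, which also encodes a system N carrier, is the member known from mouse cumulus cells. It lies on chromosome 9 (mm10, 107650634 to 107669530, minus strand). It read 9.78, 10.9 and 9.93 FPKM in cKO 1 to 3, against 20.7, 21.7 and 16.7 FPKM in control 1 to 3. The cKO pools were close together and all below the lowest control, which was again control 3. The mean was 10.2 ± 0.63 FPKM in cKO and 19.7 ± 2.66 FPKM in control (SD, n = 3 each), and the log2 change was -0.88 (SE 0.11, 95% interval -1.14 to -0.62, adjusted p = 0.0169 by limma). The adjusted p was 0.0783 without cKO 1, 0.0911 without control 1 and 0.0917 without control 2, with log2 changes of -0.85, -0.84 and -0.81, and 0.00584 without control 3.

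Slc38a5 and Slc38a3 can be set side by side in each pool. Slc38a5 stood at 0.932, 0.927 and 0.6 times the FPKM of Slc38a3 in cKO 1 to 3, against 3.26, 3.36 and 1.44 times in control 1 to 3. Slc38a5 was thus the more abundant of both in every control pool and the less abundant in every cKO pool, on the per-length FPKM scale. Their summed level was 18.9, 21.1 and 15.9 FPKM in cKO 1 to 3, against 88.1, 94.7 and 40.6 FPKM in control 1 to 3.

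Slc6a15 encodes a sodium-coupled carrier of neutral amino acids best known from brain. It lies on chromosome 10 (mm10, 103367783 to 103419377, plus strand). It read 1.59, 2.08 and 2.41 FPKM in cKO 1 to 3, against 12.2, 14.3 and 7.95 FPKM in control 1 to 3. The lowest control pool, control 3, was still more than any cKO pool. The mean was 2.03 ± 0.42 FPKM in cKO and 11.5 ± 3.23 FPKM in control (SD, n = 3 each), and the log2 change was -2.02 (SE 0.21, 95% interval -2.50 to -1.54, adjusted p = 0.0104 by limma). The call was lost without cKO 1, at an adjusted p of 0.0618, and without control 1, at 0.0577, with log2 changes of -1.91 and -1.96. Without control 3 the log2 change was -2.24 at an adjusted p of 0.00203. None of these 3 genes shares exon sequence with another annotated gene.

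**Figure D2:**
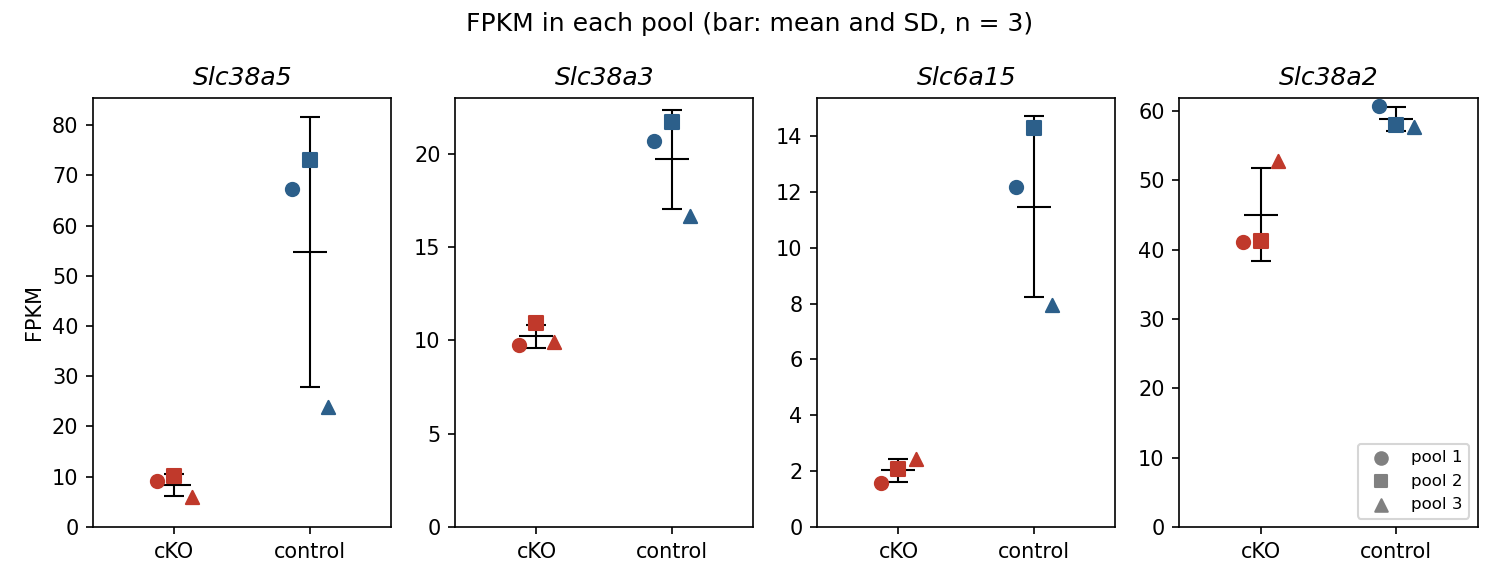
FPKM (y axis, from 0) in each pool for Slc38a5, Slc38a3, Slc6a15 and Slc38a2, with cKO left of control, 1 symbol per pool and the mean and SD over 3 pools. In each panel control 3 is the lowest control, and the highest cKO pool lies below the lowest control pool.

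Other measurements also differed between the groups. The counts of markers below stand beside the 4.33% of all genes tested that passed in either direction. Of 8 granulosa markers 3 fell (Inha, Inhbb and Hsd17b1) and none rose. The list did not move as one. Of those that did not pass, Fshr and Nr5a2 were lower in every cKO pool. Foxl2 was higher in every cKO pool (log2 change 0.43, adjusted p = 0.128 by limma), and Amh and Amhr2 overlapped. The list summed to 1750 to 2144 FPKM in cKO and 2621 to 3354 FPKM in control. Most of that sum was Inha, at a mean of 1265 FPKM in cKO and 2017 FPKM in control. Of 8 oocyte markers 2 rose (Zp2 and Zp3) and none fell, and this list did not move as one either. Of the others, Zp1 was higher in every cKO pool, and Gdf9, Nobox, Ooep, Bmp15 and Oosp1 overlapped. Bmp15 had a log2 change of -0.67 and Oosp1 one of -0.05. The oocyte list summed to 1263 to 1938 FPKM in cKO and 950 to 1090 FPKM in control. Zp2 and Zp3 had its highest means, at 452 and 484 FPKM in cKO and 241 and 277 FPKM in control. Among controls the granulosa sum was lowest in control 3, as were the 3 transporter genes, the globin sum given below and the estimated depth. Among 3 follicle gap junction genes 1 fell, Gja1, which joins granulosa cells to each other. It read 395, 360 and 407 FPKM in cKO 1 to 3 and 858, 849 and 671 FPKM in control 1 to 3, at an adjusted p of 0.0123 by limma, which was 0.0618 without cKO 1, 0.0729 without control 1 and 0.078 without control 2. All 4 mast cell markers rose, with a sum of 27.8 to 56.3 FPKM in cKO and 10.1 to 18.1 FPKM in control. Of 5 stroma markers 2 rose (Pdgfra and Tcf21), and no marker of theca (6), endothelium (5), immune cells (3), surface epithelium (4), fat cells (3) or blood (2) passed. Globin genes Hba-a1 and Hba-a2 summed to 763, 414 and 2151 FPKM in cKO 1 to 3 and to 3451, 2105 and 1051 FPKM in control 1 to 3. The part of cell composition, blood and fat included, in the transporter values was not tested.

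The rest of the Slc38a family did not pass. All 11 family members in the table were tested, 2 fell, and the medians of the family and of all genes tested were 0.08 and 0.05 on the log2 scale. Slc38a2, a system A carrier and the second most abundant member over all pools, read 41.1, 41.2 and 52.8 FPKM in cKO 1 to 3, against 60.7, 58 and 57.6 FPKM in control 1 to 3. The groups did not overlap, and the log2 change of -0.39 (95% interval -0.64 to -0.14) had an adjusted p of 0.0861 by limma. Without cKO 3, its highest cKO pool, the adjusted p was 0.034 at a log2 change of -0.51. The other system A genes, Slc38a1 and Slc38a4, lie on either side of Slc38a2 on chromosome 15, with gaps of 44.5 kb and 295 kb. Slc38a1 measured 14 ± 0.79 FPKM in cKO and 13.9 ± 1.46 FPKM in control, with a log2 change of 0.02 and an interval from -0.21 to 0.24, and its sign changed with the scaling. Slc38a4 measured 7.5 ± 0.76 FPKM in cKO and 6.42 ± 1.14 FPKM in control (SD, n = 3 each), with an interval of the log2 change from -0.10 to 0.51.

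Of the remaining Slc38a genes, Slc38a10 was the most abundant, at 54.9, 50.9 and 46.3 FPKM in cKO 1 to 3 and 54.9, 50.2 and 39.6 FPKM in control 1 to 3. Slc38a7, which exports glutamine from lysosomes and has also been classed with system N, measured 9.56 ± 1.00 FPKM in cKO and 8.75 ± 0.28 FPKM in control. Slc38a9, the lysosomal arginine sensor of the growth kinase mTORC1, measured 2.05 ± 0.23 FPKM in cKO and 1.91 ± 0.30 FPKM in control (SD, n = 3 each). Slc38a6, Slc38a8 and Slc38a11 had means between 0.506 and 2.81 FPKM over the 6 pools. The log2 changes of these 6 genes ran from 0.07 to 0.19 and their groups overlapped, and that of Slc38a9 turned below 0 with quantile normalisation.

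**Figure D3:**
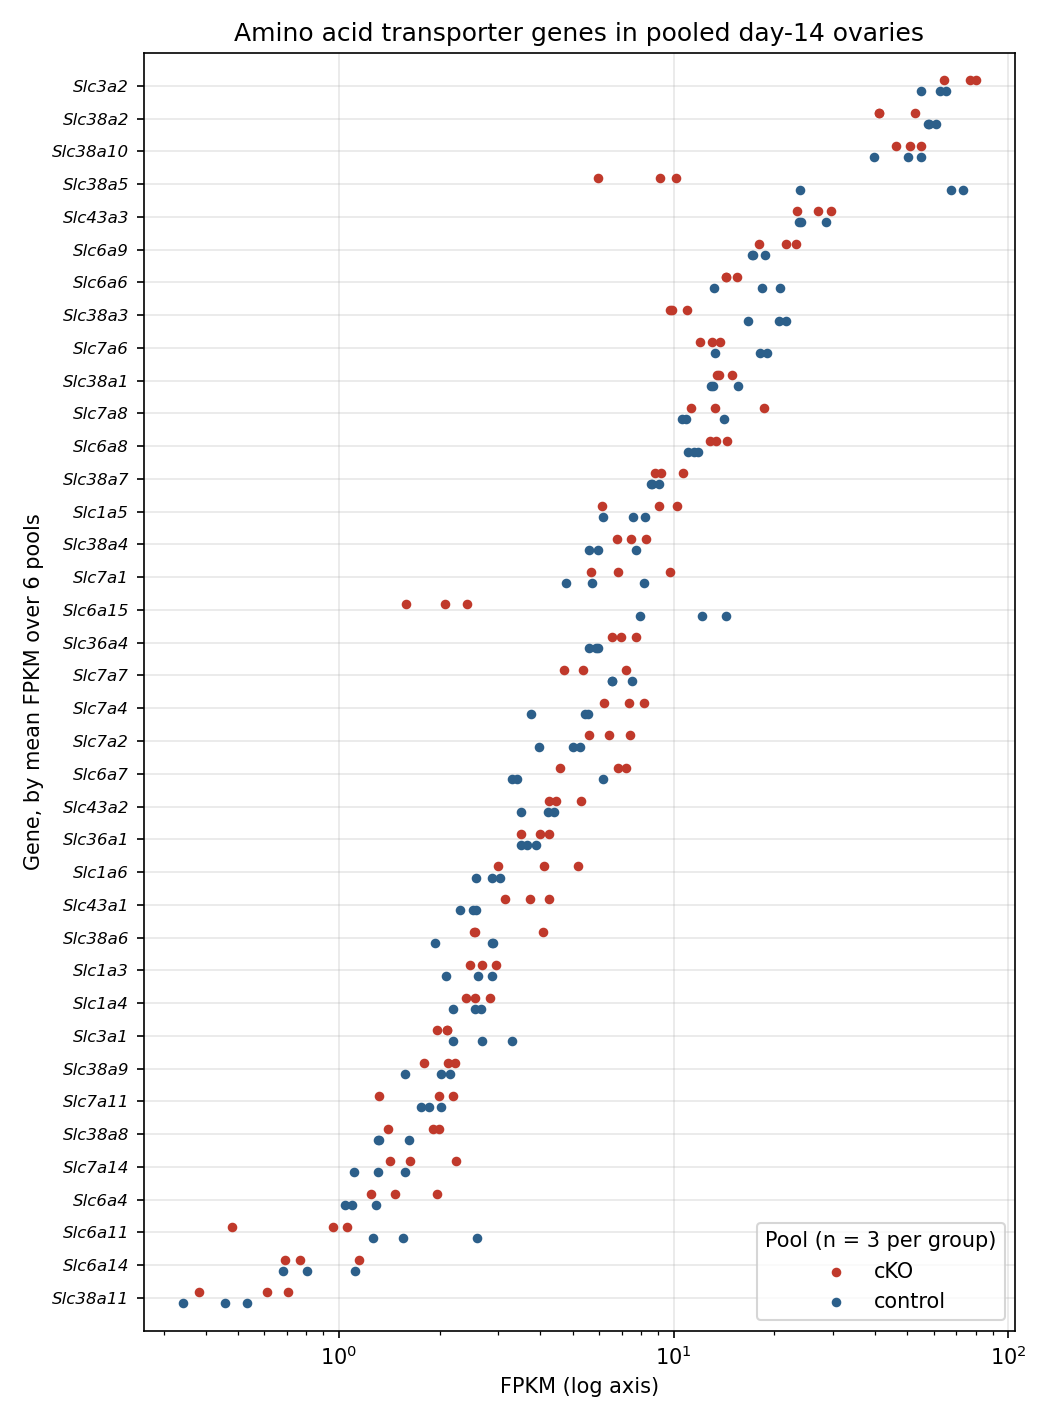
FPKM (log axis) of the 38 transporter genes in each pool, ordered by mean level, with cKO points above control points in each row. Slc3a2 leads at a mean of 67.3 FPKM, and Slc38a5 and Slc6a15 are the rows whose cKO points lie farthest left of their control points.

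The heavy chain gene Slc3a2 was the most abundant member in both groups. It read 79.8, 64.4 and 76.8 FPKM in cKO 1 to 3, against 62.6, 65.1 and 54.9 FPKM in control 1 to 3. Control 2 lay above the lowest cKO pool, and the log2 change of 0.27 (95% interval 0.02 to 0.52) had an adjusted p of 0.182 by limma. Slc3a1, the heavy chain known from kidney, was low, at 2.06 ± 0.08 FPKM in cKO and 2.72 ± 0.55 FPKM in control (SD, n = 3 each). Its groups did not overlap, and the adjusted p was 0.26 by limma. It shares 601 bases of exon with Prepl on the opposite strand.

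None of the 8 tested Slc7a genes passed. Among the light chains, Slc7a6 exchanges cationic for neutral amino acids, and it read 13.1, 13.8 and 12 FPKM in cKO 1 to 3 and 18.1, 19 and 13.3 FPKM in control 1 to 3. Control 3 lay inside the cKO range, and the log2 change of -0.34 had an adjusted p of 0.185 by limma, or 0.0427 without control 3. Slc7a8, a carrier of large neutral amino acids, spread widely within cKO, at 18.6, 13.3 and 11.3 FPKM, against 10.6, 10.9 and 14.1 FPKM in control 1 to 3, at an adjusted p of 0.467 by limma. Slc7a7, its neighbour on chromosome 14, measured 5.76 ± 1.30 FPKM in cKO and 6.88 ± 0.57 FPKM in control (SD, n = 3 each). Slc7a11, the light chain of the cystine and glutamate exchanger, measured 1.83 ± 0.46 FPKM in cKO and 1.88 ± 0.14 FPKM in control, with a log2 change of -0.04 and an interval from -0.38 to 0.31.

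The 4 tested cationic carriers of the family, which take up arginine and lysine or resemble those that do, had log2 changes above 0. None of them passed. Slc7a2 read 5.58, 6.42 and 7.4 FPKM in cKO 1 to 3, against 4.99, 5.27 and 3.96 FPKM in control 1 to 3, with a log2 change of 0.38 (95% interval 0.07 to 0.69) and an adjusted p of 0.141 by limma. Slc7a4, grouped with them by sequence, read 8.15, 7.35 and 6.21 FPKM in cKO 1 to 3, against 3.76, 5.44 and 5.56 FPKM in control 1 to 3, with a log2 change of 0.48 (95% interval 0.13 to 0.84) and an adjusted p of 0.114. For both genes every cKO pool lay above every control pool, as it did for 18% of all genes tested. Slc7a4 shares 554 bases of exon with P2rx6, and Slc7a2 shares 635 with Gm26584, each on the opposite strand. Slc7a1, the main arginine carrier of many cells, overlapped widely between groups, at 7.42 ± 2.13 FPKM in cKO and 6.22 ± 1.75 FPKM in control (SD, n = 3 each). Slc7a14 measured 1.76 ± 0.42 FPKM in cKO and 1.33 ± 0.24 FPKM in control.

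In the Slc6a family 8 of 17 genes were tested, and Slc6a15 was the only one that passed. Slc6a9, the glycine transporter that mouse oocytes and early embryos use to regulate their volume, was the most abundant of the family. It read 21.6, 18 and 23.2 FPKM in cKO 1 to 3, against 17.3, 17.2 and 18.8 FPKM in control 1 to 3. The groups overlapped, and the log2 change of 0.22 (95% interval -0.03 to 0.47) had an adjusted p of 0.252 by limma. The gene shares 1429 bases of exon with Ccdc24 on the opposite strand. The taurine carrier gene Slc6a6 read 14.4, 15.4 and 14.4 FPKM in cKO 1 to 3 and 20.9, 18.4 and 13.2 FPKM in control 1 to 3, where control 3 was below every cKO pool.

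The creatine carrier gene Slc6a8 read 14.5, 12.9 and 13.4 FPKM in cKO 1 to 3, against 11.5, 11.1 and 11.9 FPKM in control 1 to 3. Its groups did not overlap, at a log2 change of 0.23 (95% interval 0.04 to 0.41) and an adjusted p of 0.146 by limma. The GABA carrier gene Slc6a11 was low and read 0.961, 1.05 and 0.48 FPKM in cKO 1 to 3, against 2.58, 1.56 and 1.27 FPKM in control 1 to 3. Its log2 change of -0.60 (95% interval -1.09 to -0.11) had an adjusted p of 0.142, and the pseudocount of 1 makes such changes of low genes look smaller. The proline carrier gene Slc6a7 measured 6.2 ± 1.40 FPKM in cKO and 4.28 ± 1.62 FPKM in control (SD, n = 3 each), at an adjusted p of 0.262 by limma. The serotonin carrier gene Slc6a4 had a mean of 1.35 FPKM over the 6 pools, and Slc6a14, a carrier of many neutral and cationic amino acids, one of 0.868 FPKM.

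The families Slc1a, Slc36a and Slc43a held 9 tested genes, none of which passed, and all 9 log2 changes were above 0. Of these 9 signs, those of Slc1a3, Slc1a4, Slc36a1 and Slc43a3 turned under at least 1 other scaling. Slc43a3 was the most abundant, at 29.5, 27 and 23.4 FPKM in cKO 1 to 3 and 23.8, 28.6 and 24.1 FPKM in control 1 to 3, with groups that overlapped. Slc1a5, a glutamine carrier, measured 8.48 ± 2.14 FPKM in cKO and 7.32 ± 1.06 FPKM in control (SD, n = 3 each). Slc43a1, a carrier of large neutral amino acids, read 3.14, 4.25 and 3.71 FPKM in cKO 1 to 3, against 2.3, 2.52 and 2.58 FPKM in control 1 to 3. Its groups did not overlap, and the log2 change of 0.43 (95% interval 0.15 to 0.71) had an adjusted p of 0.0849 by limma, the lowest among the members that did not pass. Slc36a4, a carrier of proline and tryptophan, read 6.95, 7.71 and 6.55 FPKM in cKO 1 to 3, against 5.96, 5.87 and 5.58 FPKM in control 1 to 3, at an adjusted p of 0.164.

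Among all 38 members, the cKO pools lay wholly above the control pools for 5 genes and wholly below for 6. These are 13.2% and 15.8% of the members, against 18% and 12% of all genes tested. For 33 members the 95% interval of the log2 change lay within -1 to 1. Of the other 5, 3 are the genes that fell, and Slc6a7 and Slc6a11 had wide intervals. Control 3 was the lowest control pool for 17 of the 38 members and the highest for 16.

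**Figure D4:**
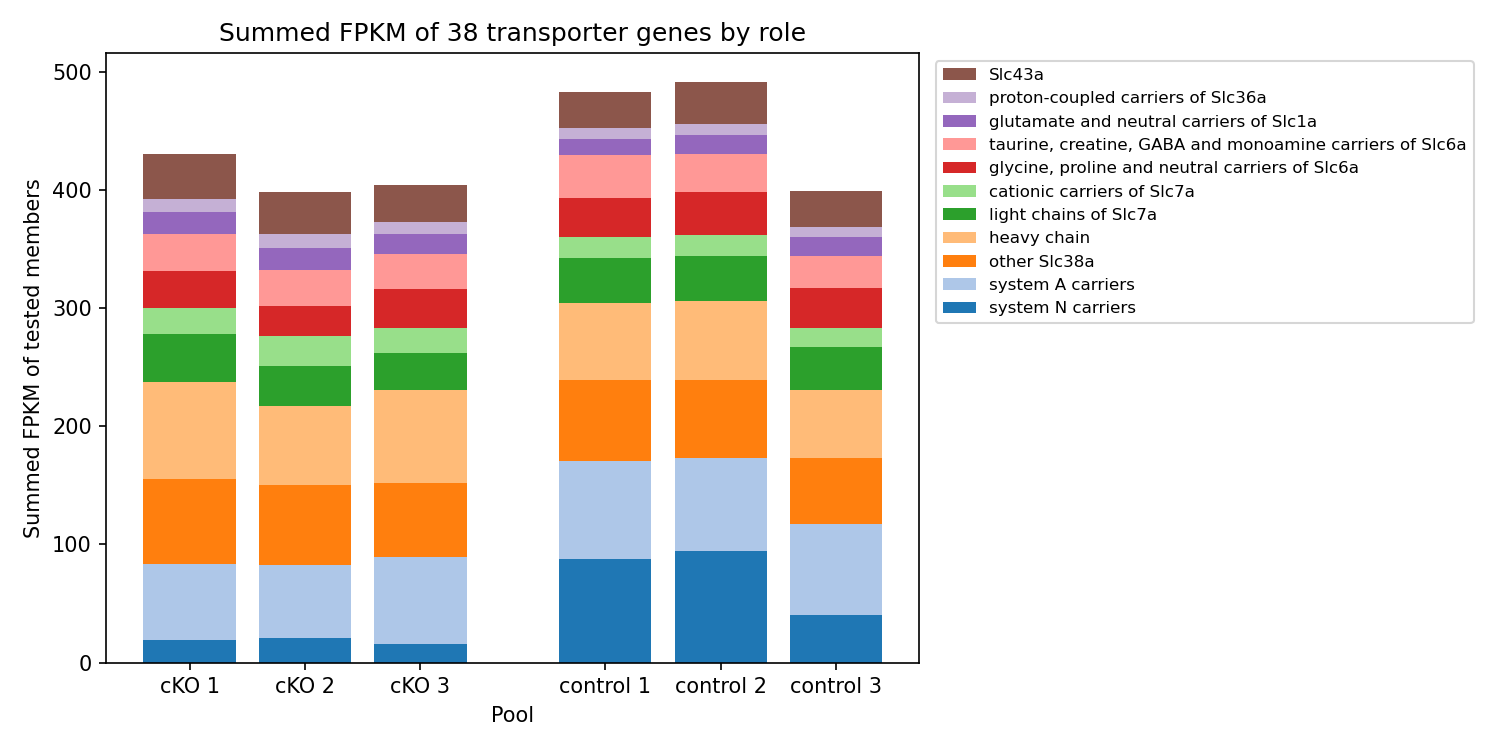
Summed FPKM (y axis, from 0) of the 38 tested transporter genes in each pool, stacked by the role of the carrier, with cKO pools left of control pools. The system N layer at the base (Slc38a3 and Slc38a5) is 15.9 to 21.1 FPKM in cKO and 40.6 to 94.7 FPKM in control.

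Summed over the 38 members, transporter FPKM was 431, 398 and 404 in cKO 1 to 3, against 483, 492 and 399 in control 1 to 3. Slc38a5 alone made up 2.12%, 2.55% and 1.47% of that sum in cKO 1 to 3, against 13.9%, 14.9% and 6% in control 1 to 3. Without Slc38a5, the member with the largest change, the sum was 403 ± 17 FPKM in cKO and 403 ± 24.2 FPKM in control (SD, n = 3 each). Without all 3 genes that fell it was 390 ± 17.8 FPKM in cKO and 372 ± 18.5 FPKM in control. Equal sums therefore do not mean that the other members were unchanged. The 4 tested cationic carriers of Slc7a summed to 22, 25.8 and 20.9 FPKM in cKO 1 to 3. Their sums were 18, 17.7 and 15.9 FPKM in control 1 to 3, and the groups did not overlap. No test was run on these sums.

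The 20 members below the FPKM minimum included Slc1a1 and Slc6a17, just under it each at a mean of 0.389 FPKM, while Slc38a11 was just above it at 0.506 FPKM. They also included the glycine carrier gene Slc6a5 and the dopamine carrier gene Slc6a3, both near 0. Slc6a18, Slc7a12 and Slc7a15 were listed at 0 in every pool. The highest value of any of the 20 in a single pool was 0.557 FPKM.

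Of 22 amino acid and peptide carrier genes listed from outside the 7 families, 16 were tested, with a median log2 change of 0.05. Of these 16, 1 fell and none rose, beside 4.33% of all genes tested that passed in either direction, so the count is no result about the list. Slc25a13, the mitochondrial exchanger of aspartate and glutamate, read 9.35, 8.55 and 9.69 FPKM in cKO 1 to 3, against 21.6, 20.2 and 14.1 FPKM in control 1 to 3 (log2 change -0.93, adjusted p = 0.0281 by limma). Control 3 was again the lowest control, and the call was lost without cKO 1, cKO 2, control 1 or control 2, at adjusted p-values from 0.0691 to 0.133. Slc25a12, its paralog, measured 29.4 ± 2.56 FPKM in cKO and 28.9 ± 1.37 FPKM in control (SD, n = 3 each).

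Of 23 tested genes of amino acid sensing by mTORC1, 1 rose and none fell, a share near the 4.33% of all genes tested that passed in either direction, and their median log2 change was 0.07. Sesn3, a sestrin gene, read 17.5, 20.3 and 13.9 FPKM in cKO 1 to 3, against 7.42, 8.04 and 7.78 FPKM in control 1 to 3 (log2 change 1.04, adjusted p = 0.0169 by limma). That call was lost without cKO 1, control 1 or control 2, at adjusted p-values from 0.0783 to 0.0895. Sestrins restrain mTORC1, and its paralog Sesn2 is a leucine sensor. The GCN2 and ATF4 response, which cells start when amino acids are scarce, was read from 15 genes. Vldlr rose by 0.47 and Nupr1 fell by 0.85 on the log2 scale, at adjusted p-values of 0.0275 and 0.0404 by limma. The other 13 did not pass, and over all genes tested 4.33% passed in either direction. Vldlr lost its call without cKO 1, cKO 2, control 1 or control 2 (adjusted p from 0.0526 to 0.148), and Nupr1 lost it without any 1 pool other than control 3 (0.0563 to 0.165). Atf4 itself measured 85.6 ± 7.24 FPKM in cKO and 82 ± 4.47 FPKM in control, and the asparagine synthetase gene Asns 12.5 ± 2.50 FPKM in cKO and 16.1 ± 3.02 FPKM in control (SD, n = 3 each).

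The promoter of Slc7a11, a known target of ATF4, is shown for comparison, since it holds the amino acid response element that this factor binds while its transcript did not pass the test. The 120 bases lie at chr3:50443615-50443734 (GRCm38.p6, minus strand) and are credited to RefSeq, as is the Slc38a5 stretch. Unlike that stretch, they lie outside the GENCODE gene, whose span ends at 50443614. The capitals mark matches to TGATGNAA on either strand, whose first bases lie 66 and 47 bases before the start.
Slc7a11: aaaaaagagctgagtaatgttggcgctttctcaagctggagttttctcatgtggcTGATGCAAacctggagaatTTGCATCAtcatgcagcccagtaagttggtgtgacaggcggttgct
This motif was found in a promoter window of 4.51% of the 27025 genes. Of the 28 tested members with a window, Slc1a4, Slc7a7 and Slc7a11 held it, and none of these 3 passed the test. Here too Slc38a5 was the only gene that fell with a window, so no comparison can be drawn. The window of Slc38a5 held no match to it, which says only that these letters are not in that window.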

How the data were processed

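RNA of 6 pools of ovaries was sequenced on an Illumina HiSeq 2500, per the labels' protocols. The deposited table holds FPKM per Ensembl gene, a unit taken from the tools and the values, since the header names none. Per the submitters' processing notes, TopHat2 2.0, Cufflinks 2.0 and the build mm10 were used, and how they were combined is not stated. Which annotation, strand setting or scaling between libraries was applied is not given in the sources used here. Groups follow the genotype label. Replicate numbers are names given in order of deposit.

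Values were compared as log2(FPKM + 1) with limma 3.58.1 in R 4.3.3 (lmFit, eBayes with a mean-variance trend). Genes with a mean of at least 0.5 FPKM entered, and p-values were adjusted over all 14934 by the Benjamini-Hochberg method, with 0.05 as the threshold. Changes of low genes are understated on this scale. The procedure was checked on simulated data.

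For the depth, FPKM values below 0.15 were read as 1 fragment in genes with a single transcript of 1500 bases or more, after 150 bases were taken off the length, and no interval was built on it. Positions and exon overlaps are from GENCODE M21, where all 58 members were found by identifier. Promoter windows are RefSeq's (GRCm38.p6) and matched 28 of the 38 tested members.

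All tested members could be named. Values of each pool are given for members that passed, for members at an unadjusted p below 0.05 whose groups did not overlap and for the 8 most abundant. Slc7a6 and Slc7a8 were given pool values after these were seen. From each related list the passing members of smallest p are named, at most 3, and Slc25a12, Atf4 and Asns were added after their values were seen. The members and the lists were chosen with earlier results of these data known. The targeted gene and some others are not reported here, so the genotype labels were not checked from it.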

Additional observations from a re-analysis of the deposited data

How the results depend on the processing

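Slc38a5, Slc38a3 and Slc6a15 kept their direction under all 15 alternatives, which were pseudocounts of 0.1 and 0.5, no low-value filter, a mean of at least 2 FPKM, quantile normalisation, median centring, array weights, each pool left out, control 3 left out with cKO 3, and the controls against cKO 1 alone. The last keeps the pools whose titles share a number range that no label explains, and assumes that cKO 1 varies like the controls. No paired analysis was possible because no label numbers pools across the groups. The number of transporter genes that fell was 0 with no low-value filter, 0 against cKO 1 alone and 0 to 4 with 1 pool left out, and 0 rose with 1 pool left out. With array weights 1 rose (Slc43a1) and 4 fell, with Slc7a6 added to the 3 genes of the main fit. Over all genes 4 rose and 24 fell with no low-value filter, 577 fell with median centring, 1041 rose and 743 fell with array weights, and 22 rose and 2 fell against cKO 1 alone. With 1 pool left out 2 to 352 rose and 9 to 388 fell. Some settings hold fewer pools and another adds low genes, and the cause of these differences was not tested. Some log2 changes turned sign, near 0 in the main fit apart from Slc7a7 at -0.23. With quantile normalisation they were -0.0496 for Slc1a3, -0.0642 for Slc1a4, -0.0454 for Slc36a1, -0.0239 for Slc38a1 and -0.0496 for Slc38a9, and with median centring -0.0121 for Slc1a4, -0.0489 for Slc38a1 and -0.005 for Slc43a3. With array weights they were -0.0262 for Slc43a3 and 0.06 for Slc6a14, without control 3 and cKO 3 -0.0018 for Slc38a1 and 0.13 for Slc6a14, and against cKO 1 alone -0.0543 for Slc38a9, 0.21 for Slc6a14 and 0.0629 for Slc7a7. With 1 pool left out they spanned -0.0144 to 0.147 for Slc1a3, -0.0042 to 0.0938 for Slc1a4, -0.0267 to 0.0963 for Slc38a1, -0.0534 to 0.177 for Slc38a10, -0.0187 to 0.13 for Slc38a9, -0.0141 to 0.148 for Slc43a3, -0.106 to 0.0931 for Slc6a14 and -0.13 to 0.102 for Slc7a11. Depth limits the rarest members most, since Slc38a11 rests on an estimated 32.4 to 66.2 fragments per pool.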
